A study of Mus musculus with 9 samples.

Results

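The genes examined here are 44 genes of glucose uptake, glycolysis, lactate formation and the response to low oxygen, listed by name for their pathway, and all 44 were found among the 19044 Ensembl identifiers of the gene table. RNA was sequenced from 3 mouse squamous cell carcinoma (SCC) cell lines that differ in focal adhesion kinase (FAK), an adhesion-linked tyrosine kinase encoded by Ptk2, with 3 biological replicates per line. The tumour cells came from FVB mice with the genotype K14CreER FAK flox/flox, in which Cre is driven by a keratin promoter, after skin carcinogenesis with dimethylbenzanthracene and a phorbol ester. FAK was deleted in culture with 4-hydroxytamoxifen. FAK-/- cells are a clone from that deletion. FAK-WT and FAK-kd cells are the FAK-/- clone with retroviral wild-type FAK or kinase-deficient FAK, selected with hygromycin, so that every library carries the deletion and all lines trace to 1 clone. The sources give no low-oxygen treatment for any library, and the medium held added pyruvate. FAK-WT against FAK-/- cells compares lines with and without FAK, and FAK-WT against FAK-kd cells lines with and without its kinase activity. FAK-kd against FAK-/- cells compares lines with and without the kinase-deficient protein. No viral transduction or selection is stated for FAK-/- cells, and each FAK form is 1 line. Effects of FAK, of transduction and selection, and of other differences between the lines cannot be told apart.

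FAK-WT replicate 1 held 779755 counts, which was 2.31% of the median of the other libraries, and those held 25304994 to 37264636 counts. Its floor of 3 counts corresponded to 3.85 CPM (counts scaled to a fixed library total), against at most 0.119 CPM elsewhere. Floors use the library total alone, whereas all other CPM values are also adjusted with edgeR's TMM factors. The fold changes over FAK-/- cells of Pfkfb3, Ldhb, Epas1, Egln3, Car9 and Ankrd37, which had few counts in it, are also given without it. Ptk2 stood at 215 ± 1.92 CPM for FAK-WT, 21.6 ± 1.93 CPM for FAK-/- and 163 ± 11.5 CPM for FAK-kd cells (SD, n = 3). The labels call for the lowest level in FAK-/- cells, which was seen, and give no order for the other lines. Ptk2 was higher in FAK-WT than in FAK-kd cells by 0.40 on the log2 scale, so these lines differ in Ptk2 level as well as in kinase activity. Of the 8 keratinocyte markers looked up, 6 were in the table, and together they reached no more than 1.77 CPM in any library, with Krt5 at 0 in all FAK-/- and FAK-kd libraries. Summed fibroblast markers lay between 1344 and 1988 CPM, nearly all of it Col3a1, while summed immune and endothelial markers stayed at or below 3.33 and 2.05 CPM. The markers that define keratinocytes were thus at or near 0 in all 3 lines, contrary to the squamous label. Of the 6 fibroblast markers in the table, 2 were lower (Pdgfra and Pdgfrb), 1 was higher (Dcn, at most 0.506 CPM in any library) and 3 did not pass for FAK-WT against FAK-/- cells. Pdgfra and Pdgfrb had log2 fold changes of -1.44 (SE 0.16, edgeR adjusted p = 1.35e-05) and -2.04 (SE 0.17, edgeR adjusted p = 4.28e-07), and against FAK-kd cells they were lower by the same test at -1.11 and -2.40, with no other marker of the list called. Between FAK-kd and FAK-/- cells 1 of the 6, Col1a2, was higher. In the other marker lists, the endothelial Cdh5 was called higher in FAK-WT cells than in both other lines. Krt6a was called higher in FAK-WT than in FAK-kd cells, and Krt8 higher in FAK-kd than in FAK-/- cells. Whether these bear on the values that follow was not tested. In RNA from a whole culture, fewer cells expressing a gene and less RNA per cell cannot be told apart.

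Glycolysis splits glucose into pyruvate through a chain of cytosolic enzymes, and lactate dehydrogenase can turn the pyruvate into lactate, which leaves the cell through monocarboxylate transporters. Hypoxia-inducible factor (HIF) is a dimer of an oxygen-labile alpha subunit and a stable beta subunit, and prolyl hydroxylases mark the alpha subunit for destruction by the VHL ubiquitin ligase as long as oxygen is present. When HIF accumulates it raises many glycolytic genes along with genes of pH control, mitophagy and collagen maturation, a programme often active in carcinomas.

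HIF binds DNA at a short core motif, ACGTG or GCGTG. The promoters of Car9, Hk2, P4ha2, Ldha and Egln3, all members that passed in some comparison, let a reader see where these letters fall. They are examples that hold a match. Other members that passed, such as Aldoa and Pfkp, are not shown, nor are Tpi1, Pkm, Gpi1, Eno2 and Kdm3a, which passed but hold no match. Each line gives the 250 bases before the RefSeq start of the gene, 5′ to 3′ on the gene's strand in GRCm38, with every match to ACGTG or GCGTG on either strand in capitals (on the opposite strand they read CACGT or CACGC, and in a palindrome the matches overlap). The Car9 window is chr4:43506776-43507025 on the plus strand, that of Hk2 chr6:82774455-82774704 on the minus strand, that of P4ha2 chr11:54100674-54100923 on the plus strand, that of Ldha chr7:46846832-46847081 on the plus strand and that of Egln3 chr12:54203875-54204124 on the minus strand.
Car9: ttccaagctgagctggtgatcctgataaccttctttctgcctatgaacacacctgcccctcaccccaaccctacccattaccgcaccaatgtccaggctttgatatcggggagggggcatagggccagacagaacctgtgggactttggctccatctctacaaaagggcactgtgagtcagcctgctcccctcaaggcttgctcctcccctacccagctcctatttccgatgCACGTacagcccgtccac
Hk2: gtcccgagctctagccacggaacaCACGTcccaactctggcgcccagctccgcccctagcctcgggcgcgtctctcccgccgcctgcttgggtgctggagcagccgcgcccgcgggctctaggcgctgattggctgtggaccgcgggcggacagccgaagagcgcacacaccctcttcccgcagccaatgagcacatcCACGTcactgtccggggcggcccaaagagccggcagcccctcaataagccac
P4ha2: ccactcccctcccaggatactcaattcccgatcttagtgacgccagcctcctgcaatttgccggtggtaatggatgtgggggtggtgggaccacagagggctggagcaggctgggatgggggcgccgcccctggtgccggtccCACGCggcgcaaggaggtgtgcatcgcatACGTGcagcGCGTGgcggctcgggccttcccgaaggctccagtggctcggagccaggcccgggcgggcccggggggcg
Ldha: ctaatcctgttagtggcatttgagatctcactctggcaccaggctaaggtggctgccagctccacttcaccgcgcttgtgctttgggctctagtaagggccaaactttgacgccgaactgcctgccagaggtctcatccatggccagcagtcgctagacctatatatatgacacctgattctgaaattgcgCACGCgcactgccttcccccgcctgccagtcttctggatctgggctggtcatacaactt
Egln3: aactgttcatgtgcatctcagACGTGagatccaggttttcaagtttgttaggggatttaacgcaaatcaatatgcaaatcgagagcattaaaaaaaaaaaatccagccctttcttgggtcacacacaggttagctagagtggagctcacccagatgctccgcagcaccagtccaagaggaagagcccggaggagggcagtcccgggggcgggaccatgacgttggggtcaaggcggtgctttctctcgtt

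The match in Car9 begins 18 bases before the start and that in Ldha 59 bases before it, whereas the match in Egln3 begins 229 bases before it. Hk2 holds matches at 226 and 52 bases before the start, and P4ha2 at 107, 78 and 69. Of the 44 members, 40 had a window, and 33 of these (82.5%) held at least 1 match, against 12679 of all 32851 windows (38.6%). These windows were not matched for base composition, and a match is a description of letters only. Slc2a3, Bnip3l, Epas1 and Ndrg1 had no window.

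Members called higher in FAK-WT cells outnumbered those called lower in both comparisons with FAK-WT cells, and most of the changes were small. Against FAK-/- cells, 21 of the 44 members were higher in FAK-WT cells and 6 were lower with an adjusted p of at most 0.05 (quasi-likelihood test of edgeR, adjusted over all 19044 genes), where 8.01% and 9.96% of all genes passed in these directions. Against FAK-kd cells, 17 members were higher and 3 lower in FAK-WT cells, where 7.58% and 10.2% of all genes passed. Between FAK-kd and FAK-/- cells, 5 members were higher and 5 lower in FAK-kd cells, where 3.97% and 3.88% of all genes passed and 7.84% in either direction. The background shares among the 12235 genes with enough counts for edgeR's filterByExpr, which 42 of the 44 members passed, were 11.6% and 15.1%, 10.7% and 15.5%, and 6.11% and 5.81% in the same order. The median log2 fold change of the members was 0.23, 0.17 and 0.02, and that of all genes was 0 in each comparison. The members were chosen with earlier results of these data known, so the shares are a description and not an independent test.

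Few members also changed by at least 1 on the log2 scale. Against FAK-/- cells these were Car9, which was higher in FAK-WT cells, and Pfkfb3, Ldhb, Epas1 and Egln3, which were lower, where 2.32% and 3.06% of all genes passed (5.38% in either direction). Against FAK-kd cells they were Car9, higher, and Epas1, lower, where 2.37% and 2.89% passed (5.26% in either direction). Between FAK-kd and FAK-/- cells Egln3 alone did so, lower in FAK-kd cells, where 0.914% of all genes were higher and 1.09% lower (2.01% in either direction). The 3 comparisons share libraries pairwise, so that their values are set side by side and are not independent of each other. The 44 members together took 2.67 ± 0.00764% of the counts for FAK-WT, 2.19 ± 0.0585% for FAK-/- and 2.15 ± 0.0648% for FAK-kd libraries (SD, n = 3). Leaving out FAK-/- replicate 3 raised the member counts to 24 higher and 7 lower, 22 and 5, and 8 and 6. Leaving out FAK-WT replicate 2 gave 16 and 3, 15 and 1, and 2 and 5, and leaving out FAK-WT replicate 3 gave 15 and 3, 12 and 1, and 2 and 5. The 5 members higher in FAK-kd than in FAK-/- cells also became 3 and 2 without FAK-/- replicate 1 or 2, and 1 without FAK-kd replicate 2 or 3. The calls over all genes moved too. With all libraries they numbered 3422, 3376 and 1494, and with 1 library left out they ranged over 2016 to 4393, 2083 to 5355 and 712 to 2211. The share of all genes called in each single refit, here and below, is not given.

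**Figure D1:**
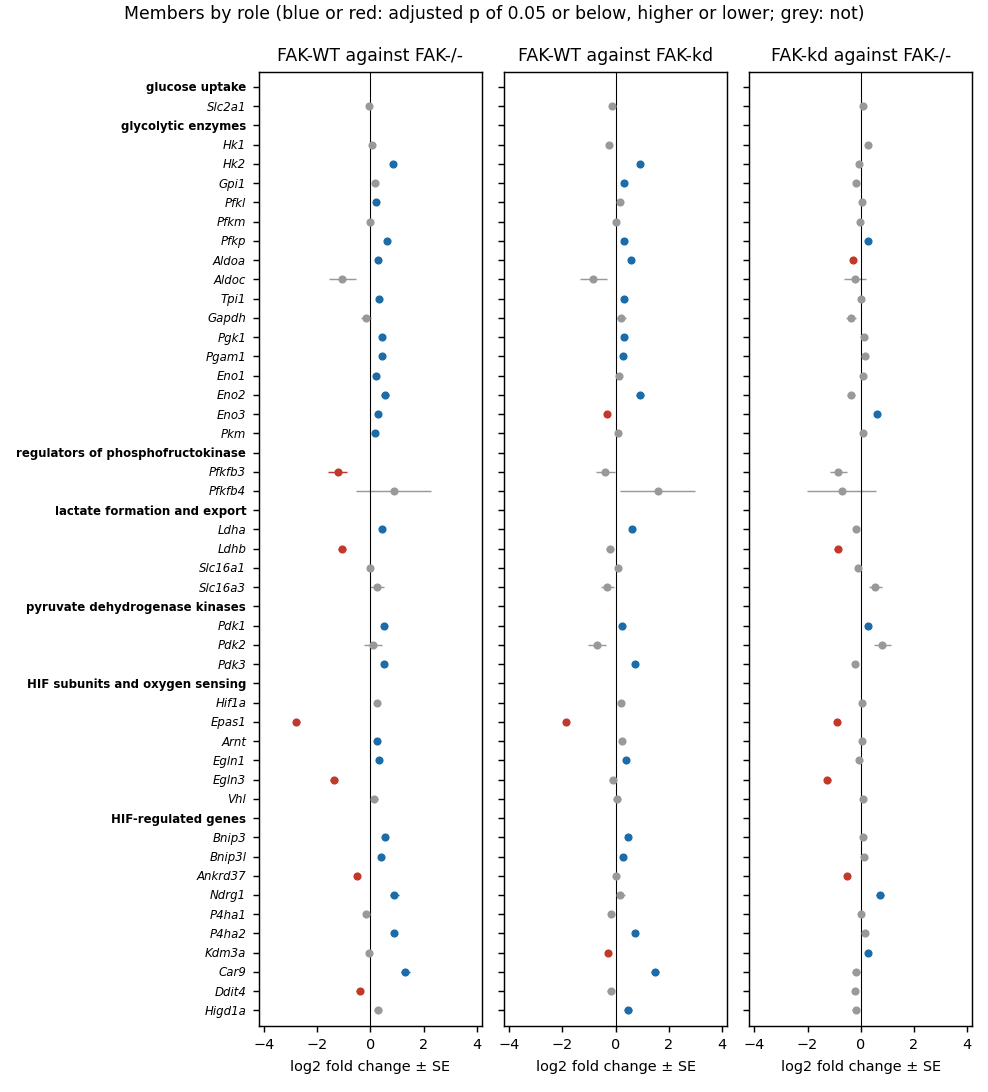
Log2 fold change ± standard error (edgeR, 3 libraries per line) of 42 members, grouped by role, in the 3 comparisons, with the first-named line minus the second. Blue points passed an adjusted p-value of 0.05 and were higher, red points passed and were lower, and grey points did not pass. Slc2a3 and Pdk4, with at most 3 counts in every library, are not drawn. Most blue points lie below 1, while Epas1 stands apart at -2.78 and -1.87.

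Levels per kilobase of transcript were taken from each member's own identifier, without the related identifiers that share its sequence (copies, described below). By this measure Pkm (pyruvate kinase) had the highest mean in each line, at 2681 CPM per kb for FAK-WT, 2392 for FAK-/- and 2523 for FAK-kd cells. Ldha followed at 2645, 1944 and 1706 CPM per kb and Pgk1 at 1706, 1268 and 1364. The members of the oxygen response were lower by this measure, for example 49.4 CPM per kb for Hif1a and 6.85 for Car9 in FAK-WT cells. The order at the top depends on how reads were divided. Gapdh held 23.4% and Eno1 41.2% of the counts summed with their copies. Summed Gapdh averaged 4674 CPM for FAK-WT, 4272 for FAK-/- and 4048 for FAK-kd cells. Over the Gapdh transcript of 1420 bases, this would stand above Pkm in each line. Slc2a3 (a neuronal-type glucose transporter) and Pdk4 had at most 3 counts in every library, and 7 members averaged under 100 counts.

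**Figure D2:**
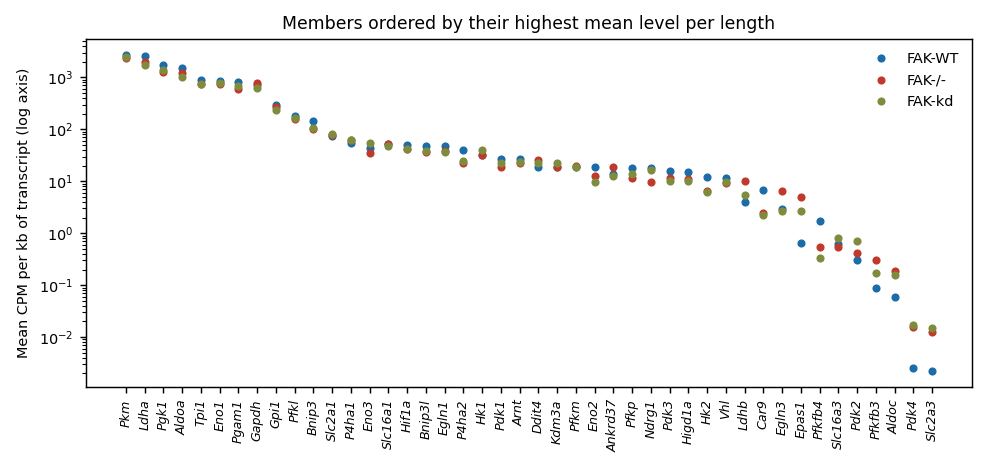
Mean level of each of the 44 members in CPM per kilobase of its principal transcript (log axis) in FAK-WT, FAK-/- and FAK-kd cells (n = 3 each), ordered by the highest of the 3 means. Counts are those of the member's own identifier, without its copies. Levels run from 2681 for Pkm in FAK-WT cells down to Pdk4 and Slc2a3, which rest on at most 3 counts per library.

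Neither transporter gene of glucose uptake, Slc2a1 or Slc2a3, passed the test in any comparison, and Slc2a3 had at most 3 counts in every library. Slc2a1, which encodes the main glucose transporter of proliferating cells, was expressed at 217, 248 and 251 CPM in the FAK-WT libraries, 239, 240.0 and 279 CPM in the FAK-/- libraries and 261, 274 and 261 CPM in the FAK-kd libraries. Its FAK-WT libraries overlapped those of FAK-/- cells and lay below those of FAK-kd cells, and its log2 fold changes were -0.06 (edgeR adjusted p = 0.64), -0.13 (edgeR adjusted p = 0.293) and 0.07 (edgeR adjusted p = 0.61) for FAK-WT against FAK-/-, FAK-WT against FAK-kd and FAK-kd against FAK-/- cells. In the same order, Hk1, the widely expressed hexokinase that traps glucose as its phosphate, had 0.06 (edgeR adjusted p = 0.735), -0.23 (edgeR adjusted p = 0.115) and 0.29 (edgeR adjusted p = 0.0655).

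Of the 16 glycolytic enzyme genes, 11 were higher and none was lower in FAK-WT cells than in FAK-/- cells (8.01% and 9.96% of all genes), with a median log2 fold change of 0.26. Against FAK-kd cells, 8 were higher and 1 was lower (7.58% and 10.2% of all genes), with a median of 0.23. Between FAK-kd and FAK-/- cells 2 were higher and 1 was lower (3.97% and 3.88% of all genes), with a median of 0.02. Hk2, the inducible hexokinase (ENSMUSG00000000628, chromosome 6, 82725025 to 82774454, minus strand of GRCm38), was expressed at 64.2, 69.8 and 62.7 CPM in the FAK-WT libraries, 32.6, 39.7 and 37.6 CPM in the FAK-/- libraries and 32.4, 35.9 and 35.7 CPM in the FAK-kd libraries. All FAK-WT libraries lay well above the rest, and the other lines overlapped. Hk2 was 1.80-fold higher in FAK-WT cells than in FAK-/- cells, a log2 fold change of 0.85 (SE 0.10, edgeR adjusted p = 1.88e-05). It was 1.90-fold higher than in FAK-kd cells, 0.93 (SE 0.10, edgeR adjusted p = 7.84e-06). Between FAK-kd and FAK-/- cells its log2 fold change was -0.08 (edgeR adjusted p = 0.674).

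Phosphofructokinase, which commits sugar to glycolysis, has liver, muscle and platelet isoforms, of which the platelet form passed in every comparison. Pfkp, the platelet isoform, was expressed at 78.1, 71.3 and 72.7 CPM in the FAK-WT libraries, 48.0, 48.9 and 46.3 CPM in the FAK-/- libraries and 55.6, 61.1 and 56.9 CPM in the FAK-kd libraries, and no pair of lines overlapped. Its log2 fold change was 0.61 (SE 0.078, edgeR adjusted p = 4.24e-05) over FAK-/- and 0.33 (SE 0.078, edgeR adjusted p = 0.00657) over FAK-kd cells. FAK-kd cells were above FAK-/- cells by 0.28 (SE 0.074, edgeR adjusted p = 0.0297). The last of these calls held in 2 of the 9 fits that left out 1 library (highest adjusted p = 0.206), and it was also lost in a fit of only the groups compared. Pfkl, the liver isoform, was higher than in FAK-/- cells by 0.20 (SE 0.060, edgeR adjusted p = 0.0344), a call that held in 2 of the 9 fits that left out 1 library (highest adjusted p = 0.164). With a replicate block the Pfkl call was lost too. Pfkm, the muscle isoform, was not called in any comparison, at 54.7 ± 1.62 CPM for FAK-WT, 55.7 ± 2.34 CPM for FAK-/- and 54.5 ± 2.9 CPM for FAK-kd cells (SD, n = 3).

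Aldoa, Tpi1, Pgk1 and Pgam1 were higher in FAK-WT cells than in both other lines. Aldoa, the main aldolase, which cleaves the hexose, was expressed at 2336, 2238 and 2282 CPM in the FAK-WT libraries, 1847, 1810.0 and 1946 CPM in the FAK-/- libraries and 1627, 1489 and 1489 CPM in the FAK-kd libraries. The 3 lines did not overlap, with FAK-WT highest and FAK-kd lowest. The log2 fold change was 0.29 (SE 0.061, edgeR adjusted p = 0.00311) over FAK-/- and 0.57 (SE 0.061, edgeR adjusted p = 6.81e-06) over FAK-kd cells. FAK-kd cells fell below FAK-/- cells at -0.28 (SE 0.060, edgeR adjusted p = 0.00838), a call that held in 7 of the 9 fits that left out 1 library (highest adjusted p = 0.0557). That call was also lost with GC offsets. Tpi1, which interconverts the triose phosphates, was higher than in FAK-/- cells by 0.31 (SE 0.057, edgeR adjusted p = 0.00113) and higher than in FAK-kd cells by 0.30 (SE 0.057, edgeR adjusted p = 0.00136). Gpi1, the isomerase that follows hexokinase, passed against FAK-kd cells, at 0.33 (SE 0.060, edgeR adjusted p = 0.00088). It did not pass over FAK-/- cells, with 0.17 (edgeR adjusted p = 0.0643), and the FAK-kd against FAK-/- value was -0.16 (edgeR adjusted p = 0.111). Over FAK-/- cells it did pass with DESeq2, DESeq2's size factors, library size alone, filterByExpr and GC offsets. The same held without FAK-/- replicate 3 or FAK-kd replicate 1. With DESeq2 or filterByExpr the FAK-kd against FAK-/- value passed too. Aldoc had at most 0.629 CPM in any library and did not pass.

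Pgk1, which makes the first ATP of the pathway, was expressed at 3119, 3002 and 3222 CPM in the FAK-WT libraries, 2421, 2443 and 2079 CPM in the FAK-/- libraries and 2794, 2383 and 2293 CPM in the FAK-kd libraries. FAK-WT libraries were all above the others. The log2 fold change was 0.43 (SE 0.081, edgeR adjusted p = 0.0015) over FAK-/- and 0.32 (SE 0.081, edgeR adjusted p = 0.0108) over FAK-kd cells, the second of which held in 6 of the 9 fits that left out 1 library (highest adjusted p = 0.08). Pgam1, the mutase that follows, had 0.44 (SE 0.060, edgeR adjusted p = 8.26e-05) and 0.27 (SE 0.060, edgeR adjusted p = 0.00474). The second held in 8 of the 9 fits that left out 1 library (highest adjusted p = 0.0531).

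The enolases form phosphoenolpyruvate and come in several isoforms. Eno1, the general form, was higher in FAK-WT cells than in FAK-/- cells by 0.22 (SE 0.060, edgeR adjusted p = 0.0163), which held in 6 of the 9 fits that left out 1 library (highest adjusted p = 0.0888), and by 0.13 (edgeR adjusted p = 0.154) over FAK-kd cells, which did not pass. Eno2, the neuronal form, was expressed at 56.6, 48.4 and 52.0 CPM in the FAK-WT libraries, 28.9, 33.2 and 43.0 CPM in the FAK-/- libraries and 22.1, 30.1 and 29.8 CPM in the FAK-kd libraries. It was higher in FAK-WT cells in both comparisons, by 0.55 (SE 0.15, edgeR adjusted p = 0.0193) and 0.90 (SE 0.15, edgeR adjusted p = 0.000491), the first of which held in 7 of the 9 fits that left out 1 library (highest adjusted p = 0.076). Eno3, the muscle form, was highest in FAK-kd cells, at 62.9, 69.8 and 68.5 CPM in the FAK-WT libraries, 53.7, 53.3 and 59.2 CPM in the FAK-/- libraries and 96.7, 79.3 and 79.3 CPM in the FAK-kd libraries. No pair of lines overlapped for Eno3. FAK-kd cells exceeded FAK-/- cells by 0.62 (SE 0.087, edgeR adjusted p = 0.000307), and FAK-WT cells stood below FAK-kd cells at -0.32 (SE 0.092, edgeR adjusted p = 0.0252) and above FAK-/- cells at 0.30 (SE 0.092, edgeR adjusted p = 0.0347). The last 2 held in 6 of the 9 fits that left out 1 library (highest adjusted p = 0.147) and in 3 of the 9 fits that left out 1 library (highest adjusted p = 0.179). The Eno3 call against FAK-kd cells was also lost with a replicate block. Pkm was higher than in FAK-/- cells by 0.17 (SE 0.053, edgeR adjusted p = 0.0438), the smallest of the 11 changes, and this held in 2 of the 9 fits that left out 1 library (highest adjusted p = 0.278). The gene table does not separate the splice forms of Pkm.

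Several of these genes have processed copies elsewhere in the genome that are close enough to share reads. Of the 44 members, 14 had over 10% of their 31-base words in transcripts of another gene, and estimated counts of these rest on how reads were divided. Gapdh was the extreme case, with 41 such identifiers in the table. Its processed pseudogene Gm13394 on chromosome 2 averaged 74543 counts a library and Gapdh itself 29430. Gapdh stood at 988, 990.3 and 1024 CPM in the FAK-WT libraries, 845, 862 and 1684 CPM in the FAK-/- libraries and 914, 861 and 864 CPM in the FAK-kd libraries, and FAK-/- replicate 3 was far above the other FAK-/- libraries. Gapdh held 20.9 to 22.3% of the counts summed over the gene and its copies in 8 libraries and 35.2% in FAK-/- replicate 3. Summed, the counts came to 4644, 4642 and 4736 CPM for FAK-WT, 4069, 3982 and 4765 CPM for FAK-/- and 4351, 3934 and 3859 CPM for FAK-kd libraries.

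The log2 fold change of Gapdh, the dehydrogenase often taken as a reference transcript, was -0.18 (edgeR adjusted p = 0.559) over FAK-/- and 0.19 (edgeR adjusted p = 0.556) over FAK-kd cells. With the copies summed in, a choice made after the data were seen, it was 0.13 (edgeR adjusted p = 0.273) and 0.21 (edgeR adjusted p = 0.0656). Without FAK-/- replicate 3 the values for Gapdh alone were 0.23 (edgeR adjusted p = 0.00112) and 0.19 (edgeR adjusted p = 0.00196), which turned the sign of the first and passed in both. No direction is therefore given for Gapdh. In the same library Pgam1 held 83.8% of its summed counts, against 90.5 to 93.4% elsewhere, and Pgk1 81.9%, against 89.3 to 92.5%.

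Eno1 held 40.4 to 41.7% of its summed counts in every library, with Eno1b, annotated as protein coding on chromosome 18, averaging 56321 counts and Eno1 47445. Summing the copies left the log2 fold changes of Eno1, Pgk1 and Pgam1 over FAK-/- cells at 0.22 (edgeR adjusted p = 0.0151), 0.38 (edgeR adjusted p = 0.00151) and 0.40 (edgeR adjusted p = 0.000327). Pkm no longer passed against FAK-/- cells with copies summed, nor did Pdk1 between FAK-kd and FAK-/- cells, and Arnt came to pass against FAK-kd cells. Pkm, Pdk1 and Arnt had no copy among the identifiers, so their own counts were unchanged and only the fit around them differed. With copies summed, the member counts were 20 higher and 6 lower, 18 and 3, and 4 and 5 in the order of the comparisons above. Dropping the 14 members with shared words left 12 higher and 4 lower against FAK-/- cells, 8 and 3 against FAK-kd cells, and 5 and 2 between FAK-kd and FAK-/- cells, out of 30 members.

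**Figure D3:**
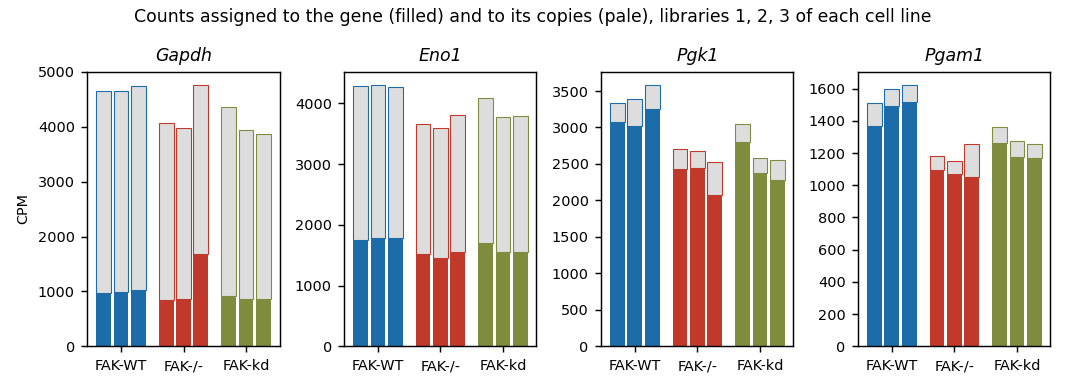
CPM in each library for Gapdh, Eno1, Pgk1 and Pgam1, with counts assigned to the gene (filled) stacked under counts assigned to table identifiers that hold over 10% of its 31-base words (pale). In FAK-/- replicate 3 the filled part of Gapdh is 35.2% of the bar, and in the other libraries it is 20.9 to 22.3%.

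Pfkfb3 and Pfkfb4 encode enzymes that set the level of fructose bisphosphate activators of phosphofructokinase, and both were weakly expressed. Pfkfb3 was read at 0, 0.719 and 0.519 CPM in the FAK-WT libraries, 1.32, 1.46 and 1.47 CPM in the FAK-/- libraries and 0.899, 0.839 and 0.615 CPM in the FAK-kd libraries, with 0 counts in FAK-WT replicate 1, where 0 counts allow up to 3.85 CPM. Its log2 fold change against FAK-/- cells was -1.23 (SE 0.36, edgeR adjusted p = 0.026), and -1.19 (edgeR adjusted p = 0.0224) without that library. The call held in 6 of the 9 fits that left out 1 library (highest adjusted p = 0.196), and it was lost with DESeq2 and in a fit of only the groups compared. Pfkfb4 ranged from 0 to 12.6 CPM and varied as much within lines as between them.

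Among genes of lactate formation and export, Ldha was higher and Ldhb lower in FAK-WT cells than in FAK-/- cells, and in the other comparisons at most 1 of them passed. Ldha, the subunit known for favouring lactate production (ENSMUSG00000063229, chromosome 7, 46841475 to 46855627, plus strand), was expressed at 4667, 4601 and 4744 CPM in the FAK-WT libraries, 3449, 3347 and 3503 CPM in the FAK-/- libraries and 3283, 2900.5 and 2855 CPM in the FAK-kd libraries. FAK-WT libraries exceeded all others, and FAK-kd libraries were lower than FAK-/- libraries. Its log2 fold change was 0.44 (SE 0.062, edgeR adjusted p = 0.000106), or 1.36-fold, over FAK-/- and 0.63 (SE 0.062, edgeR adjusted p = 3.46e-06), or 1.55-fold, over FAK-kd cells. The value of -0.19 (edgeR adjusted p = 0.0824) for FAK-kd against FAK-/- cells did not pass. Ldhb, the heart-type subunit (ENSMUSG00000030246, chromosome 6, 142490249 to 142507957, minus strand), was expressed at 2.52, 6.31 and 6.63 CPM in the FAK-WT libraries, 14.3, 12.8 and 12.4 CPM in the FAK-/- libraries and 7.38, 7.16 and 7.09 CPM in the FAK-kd libraries. Every FAK-/- library stood above every library of the other lines. Ldhb was 2.10-fold lower in FAK-WT cells than in FAK-/- cells, -1.07 (SE 0.15, edgeR adjusted p = 8.5e-05), and 1.83-fold lower in FAK-kd than in FAK-/- cells, -0.87 (SE 0.13, edgeR adjusted p = 0.000604). For FAK-WT against FAK-kd cells it did not pass, at -0.20 (edgeR adjusted p = 0.416). FAK-WT replicate 1 had 2 counts of Ldhb, and without it the value over FAK-/- cells was -1.03 (edgeR adjusted p = 3.29e-05). The lactate exporters Slc16a1 and Slc16a3 did not pass in any comparison, with Slc16a1 at 227 ± 20.9 CPM for FAK-WT, 231 ± 28.5 CPM for FAK-/- and 215 ± 21.6 CPM for FAK-kd cells (SD, n = 3) and Slc16a3 at 2.71 ± 0.170 CPM for FAK-WT, 2.35 ± 0.539 CPM for FAK-/- and 3.45 ± 0.773 CPM for FAK-kd cells (SD, n = 3).

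Pyruvate dehydrogenase kinases keep pyruvate out of mitochondrial oxidation. Pdk1 was expressed at 138, 137 and 143 CPM in the FAK-WT libraries, 108, 98.4 and 85.6 CPM in the FAK-/- libraries and 118, 117 and 115 CPM in the FAK-kd libraries, with FAK-WT highest, FAK-kd between and FAK-/- lowest and no overlap. It was higher in FAK-WT cells by 0.52 (SE 0.081, edgeR adjusted p = 0.000284) over FAK-/- and 0.26 (SE 0.081, edgeR adjusted p = 0.0384) over FAK-kd cells. FAK-kd cells exceeded FAK-/- cells by 0.26 (SE 0.077, edgeR adjusted p = 0.0497). The call against FAK-kd cells held in 3 of the 9 fits that left out 1 library (highest adjusted p = 0.179), and that between FAK-kd and FAK-/- cells in 2 of the 9 fits that left out 1 library (highest adjusted p = 0.188). The Pdk1 call between FAK-kd and FAK-/- cells was also lost with DESeq2's size factors, library size alone, filterByExpr, a replicate block and only the groups compared. Pdk3 was expressed at 31.5, 35.5 and 35.2 CPM in the FAK-WT libraries, 24.0, 25.7 and 23.3 CPM in the FAK-/- libraries and 21.9, 20.0 and 21.3 CPM in the FAK-kd libraries. The FAK-WT libraries were above all others, by 0.52 (SE 0.093, edgeR adjusted p = 0.000962) over FAK-/- and 0.73 (SE 0.093, edgeR adjusted p = 4.65e-05) over FAK-kd cells. Pdk2 had at most 1.89 CPM and did not pass.

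Of the alpha subunits of HIF, Epas1 passed in every comparison and Hif1a in none. Hif1a was expressed at 233, 235 and 233 CPM in the FAK-WT libraries, 202, 217 and 166 CPM in the FAK-/- libraries and 186, 210.3 and 206 CPM in the FAK-kd libraries, and its log2 fold changes were 0.26 (edgeR adjusted p = 0.0618), 0.22 (edgeR adjusted p = 0.127) and 0.04 (edgeR adjusted p = 0.837), none of which passed. Without FAK-/- replicate 3 the FAK-WT against FAK-kd value was 0.22 (edgeR adjusted p = 0.00437), and without FAK-/- replicate 2 Hif1a passed against FAK-/- cells. Epas1, which encodes the alpha subunit known for its role in endothelial and renal cells (ENSMUSG00000024140, chromosome 17, 86753700 to 86833410, plus strand), was expressed at 2.52, 4.23 and 3.92 CPM in the FAK-WT libraries, 25.9, 27.2 and 30.3 CPM in the FAK-/- libraries and 14.5, 14.8 and 14.96 CPM in the FAK-kd libraries. The 3 lines formed separate steps with FAK-/- highest, FAK-kd next and FAK-WT lowest. Epas1 was 6.88-fold lower in FAK-WT cells than in FAK-/- cells, -2.78 (SE 0.12, edgeR adjusted p = 5.26e-10), and 3.66-fold lower than in FAK-kd cells, -1.87 (SE 0.12, edgeR adjusted p = 2.61e-08). FAK-kd cells stood 1.88-fold below FAK-/- cells, -0.91 (SE 0.095, edgeR adjusted p = 1.84e-05). With 2 counts in FAK-WT replicate 1, the first 2 values were -2.77 (edgeR adjusted p = 1.3e-09) and -1.86 (edgeR adjusted p = 3.86e-08) without it. The endothelial markers summed to 1.26 to 2.05 CPM in the FAK-WT libraries, 0.360 to 0.513 CPM in the FAK-/- libraries and 0.240 to 0.351 CPM in the FAK-kd libraries. Arnt, the beta subunit, was higher than in FAK-/- cells by 0.26 (SE 0.079, edgeR adjusted p = 0.0312), which held in 3 of the 9 fits that left out 1 library (highest adjusted p = 0.191). This call was also lost with a replicate block and in a fit of only the groups compared. Against FAK-kd cells Arnt did not pass, but it did in several other settings. Among these were DESeq2, filterByExpr, library size alone, only the groups compared, and leaving out FAK-WT replicate 1 or FAK-/- replicate 3. With the replicate block it did not pass there.

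Of the HIF prolyl hydroxylases, Egln1 was higher and Egln3 lower in FAK-WT cells than in FAK-/- cells. Egln1, the main hydroxylase in most cells, was expressed at 176, 175 and 173 CPM in the FAK-WT libraries, 135, 135 and 144 CPM in the FAK-/- libraries and 132, 131 and 132 CPM in the FAK-kd libraries, and it was higher in FAK-WT cells by 0.34 (SE 0.063, edgeR adjusted p = 0.00132) and 0.40 (SE 0.063, edgeR adjusted p = 0.000285). Egln3, a hydroxylase that is itself induced by HIF in many cells (ENSMUSG00000035105, chromosome 12, 54178981 to 54203860, minus strand), was expressed at 10.1, 6.79 and 6.29 CPM in the FAK-WT libraries, 17.8, 15.8 and 18.4 CPM in the FAK-/- libraries and 7.74, 7.34 and 6.70 CPM in the FAK-kd libraries. The FAK-/- libraries were all above the rest, and the FAK-WT and FAK-kd libraries overlapped. Egln3 was 2.58-fold lower in FAK-WT cells than in FAK-/- cells, -1.37 (SE 0.13, edgeR adjusted p = 3.14e-06), and 2.39-fold lower in FAK-kd than in FAK-/- cells, -1.26 (SE 0.12, edgeR adjusted p = 7.98e-06). Between FAK-WT and FAK-kd cells it was -0.11 (edgeR adjusted p = 0.614). FAK-WT replicate 1 had 8 counts, and without it the value over FAK-/- cells was -1.41 (edgeR adjusted p = 1.59e-06). Vhl, the recognition subunit of the ubiquitin ligase, was not called, with FAK-WT replicate 1 at 44.1 CPM and every other library between 25.2 and 30.1 CPM.

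**Figure D4:**
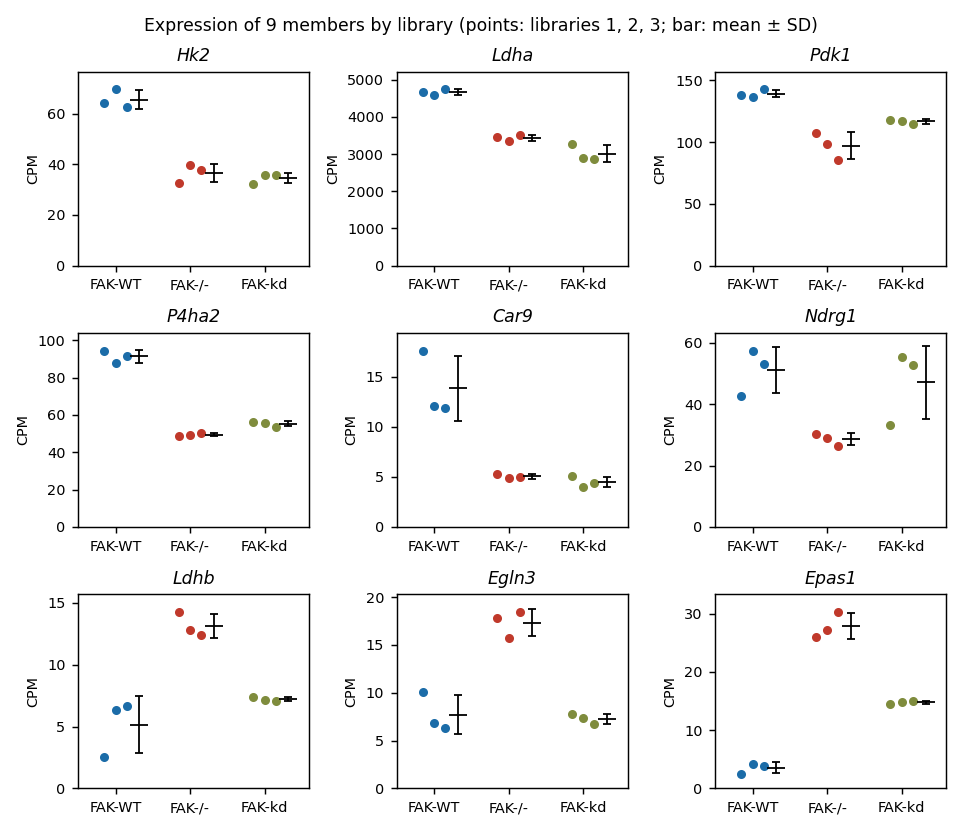
CPM of 9 members in each library (points, libraries 1 to 3 of each line) with the mean ± SD of the 3 libraries (black). Hk2, Ldha, Pdk1, P4ha2 and Car9 are highest in FAK-WT cells, Ndrg1 is lowest in FAK-/- cells, and Ldhb, Egln3 and Epas1 are highest in FAK-/- cells, at 13.2, 17.3 and 27.8 CPM on average.

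Of the 10 HIF-regulated genes outside glycolysis, 5 were higher and 2 lower in FAK-WT cells than in FAK-/- cells, against FAK-kd cells 5 were higher and 1 lower, and 2 were higher and 1 lower in FAK-kd than in FAK-/- cells, with median log2 fold changes of 0.34, 0.24 and 0.04. The shares of all genes called higher and lower were 8.01% and 9.96%, 7.58% and 10.2%, and 3.97% and 3.88%, so that several of these counts are 1 or 2 genes against shares of that size. Car9, a membrane carbonic anhydrase that exports acid equivalents and is a textbook marker of hypoxia (ENSMUSG00000028463, chromosome 4, 43506966 to 43513729, plus strand), was expressed at 17.6, 12.1 and 11.9 CPM in the FAK-WT libraries, 5.33, 4.85 and 4.96 CPM in the FAK-/- libraries and 5.07, 4.04 and 4.42 CPM in the FAK-kd libraries. The FAK-WT libraries were all above the others, whereas FAK-/- and FAK-kd libraries overlapped. Car9 was 2.48-fold higher in FAK-WT cells than in FAK-/- cells, 1.31 (SE 0.16, edgeR adjusted p = 2.48e-05), and 2.78-fold higher than in FAK-kd cells, 1.48 (SE 0.16, edgeR adjusted p = 7.75e-06). FAK-WT replicate 1 had 14 counts, and without it the values were 1.25 (edgeR adjusted p = 2.12e-05) and 1.41 (edgeR adjusted p = 6.92e-06).

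P4ha2, a catalytic subunit of collagen prolyl hydroxylase (ENSMUSG00000018906, chromosome 11, 54100095 to 54131665, plus strand), was expressed at 94.4, 87.7 and 91.8 CPM in the FAK-WT libraries, 48.7, 49.4 and 50.1 CPM in the FAK-/- libraries and 56.2, 55.7 and 53.6 CPM in the FAK-kd libraries. FAK-WT libraries were again separate from the rest. It was 1.83-fold higher than in FAK-/- cells, 0.87 (SE 0.072, edgeR adjusted p = 4.76e-07), and 1.64-fold higher than in FAK-kd cells, 0.71 (SE 0.072, edgeR adjusted p = 4.12e-06). Its paralogue P4ha1 did not pass and had values of the opposite sign, -0.18 (edgeR adjusted p = 0.14) and -0.17 (edgeR adjusted p = 0.146). Without FAK-/- replicate 3 these were -0.22 (edgeR adjusted p = 0.0113) and -0.17 (edgeR adjusted p = 0.0308), both of which passed.

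The mitophagy receptors Bnip3 and Bnip3l were both higher in FAK-WT cells. Bnip3 was expressed at 233, 251 and 283 CPM in the FAK-WT libraries, 189, 186 and 154 CPM in the FAK-/- libraries and 197, 185 and 177 CPM in the FAK-kd libraries, higher by 0.55 (SE 0.091, edgeR adjusted p = 0.000465) over FAK-/- and 0.47 (SE 0.091, edgeR adjusted p = 0.00155) over FAK-kd cells. Bnip3l rose by 0.41 (SE 0.093, edgeR adjusted p = 0.00582) and 0.29 (SE 0.093, edgeR adjusted p = 0.0394). The second held in 4 of the 9 fits that left out 1 library (highest adjusted p = 0.147). Over 10% of the words of both genes occur in a processed copy, but they held at least 99.9% of the summed counts in every library.

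Ndrg1, a stress-induced gene linked to differentiation, was higher in both FAK-WT and FAK-kd cells than in FAK-/- cells. It was expressed at 42.8, 57.4 and 53.2 CPM in the FAK-WT libraries, 30.2, 29.1 and 26.4 CPM in the FAK-/- libraries and 33.3, 55.3 and 52.6 CPM in the FAK-kd libraries, and FAK-WT and FAK-kd libraries overlapped while both stayed above FAK-/- libraries. It was higher than in FAK-/- cells by 0.90 (SE 0.16, edgeR adjusted p = 0.000863) in FAK-WT and by 0.72 (SE 0.15, edgeR adjusted p = 0.00779) in FAK-kd cells. The second held in 7 of the 9 fits that left out 1 library (highest adjusted p = 0.08). Ankrd37, an ankyrin repeat gene induced by HIF, was lower than in FAK-/- cells in both lines, at -0.50 (SE 0.11, edgeR adjusted p = 0.00651) in FAK-WT, which held in 7 of the 9 fits that left out 1 library (highest adjusted p = 0.07) and was -0.52 (edgeR adjusted p = 0.00461) without FAK-WT replicate 1, and -0.53 (SE 0.10, edgeR adjusted p = 0.005) in FAK-kd cells. Kdm3a, a histone demethylase, was highest in FAK-kd cells, with FAK-WT below FAK-kd cells at -0.30 (SE 0.077, edgeR adjusted p = 0.0121) and FAK-kd above FAK-/- cells by 0.26 (SE 0.072, edgeR adjusted p = 0.041). These held in 5 of the 9 fits that left out 1 library (highest adjusted p = 0.144) and in 3 of the 9 fits that left out 1 library (highest adjusted p = 0.218). The Kdm3a call between FAK-kd and FAK-/- cells was also lost with DESeq2's size factors, library size alone, a replicate block and only the groups compared. Ddit4, which restrains mTOR signalling, was lower in FAK-WT cells than in FAK-/- cells, -0.41 (SE 0.12, edgeR adjusted p = 0.0285), and Higd1a, a mitochondrial protein, was higher than in FAK-kd cells, 0.46 (SE 0.14, edgeR adjusted p = 0.0342). These held in 6 of the 9 fits that left out 1 library (highest adjusted p = 0.102) and in 4 of the 9 fits that left out 1 library (highest adjusted p = 0.109). The Ddit4 call was also lost in a fit of only the groups compared.

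Ratios of related members were taken within each library. With a pseudocount they still depend on the total count where the rarer gene has few counts, as Ldhb and Epas1 do in FAK-WT replicate 1. The log2 ratio of Hk2 to Hk1 (pseudocount 0.5) was -0.70, -0.996 and -1.07 in the FAK-WT libraries, -1.88, -1.64 and -1.79 in the FAK-/- libraries and -2.05, -2.13 and -2.21 in the FAK-kd libraries, without overlap. Hk2 was the rarer hexokinase in every library and least so in FAK-WT cells. The log2 ratio of Ldha to Ldhb averaged 9.84 ± 0.60 for FAK-WT, 8.03 ± 0.11 for FAK-/- and 8.70 ± 0.08 for FAK-kd cells (SD, n = 3). The 3 lines did not overlap, and the ratio was 3.51 times as high in FAK-WT as in FAK-/- cells and 1.60 times as high in FAK-kd as in FAK-/- cells. The log2 ratio of Hif1a to Epas1 was 5.96 ± 0.22, 2.80 ± 0.30 and 3.76 ± 0.074 in the same order, again without overlap, and the FAK-WT ratio was 8.93 times that of FAK-/- cells. Without FAK-WT replicate 1 the log2 differences were 1.47 over FAK-/- and 0.79 over FAK-kd cells for Ldha to Ldhb, against 1.81 and 1.14 with it. For Hif1a to Epas1 they were 3.03 and 2.07, against 3.16 and 2.20. For each of these 3 ratios and each comparison an exact permutation test gave p = 0.1 (two-sided, n = 3 against 3), the smallest p this design allows, or 0.233 adjusted over the 21 tests made. The Bnip3 to Bnip3l ratio overlapped between all lines (exact p = 0.4 in each comparison), as did Slc16a3 to Slc16a1 (exact p = 0.3, 0.4 and 0.3), and the ratios with Slc2a3 or Aldoc rest on a few counts of the rarer gene.

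**Figure D5:**
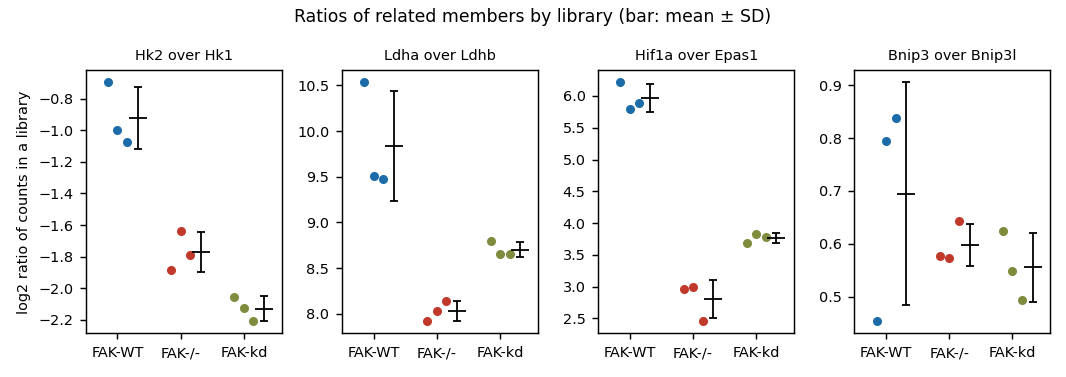
Log2 ratio of counts of related members in each library (points) with the mean ± SD of 3 libraries per line (black), pseudocount 0.5. Hk2 over Hk1, Ldha over Ldhb and Hif1a over Epas1 are highest in FAK-WT cells with no overlap between lines, and Bnip3 over Bnip3l, at 0.70, 0.60 and 0.56 on average in FAK-WT, FAK-/- and FAK-kd cells, overlaps.

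Other genes of the same pathways were read from lists of known members, which were also chosen with earlier results of these data known. Of 30 other HIF target genes in the table, 12 were higher and 3 lower in FAK-WT cells than in FAK-/- cells, against FAK-kd cells 9 were higher and 1 lower, and 1 was higher and 2 lower in FAK-kd than in FAK-/- cells, with median log2 fold changes of 0.19, 0.19 and 0.02. As shares of the 30, the 3 lower genes and the counts between FAK-kd and FAK-/- cells were near those of all genes (9.96%, and 3.97% higher and 3.88% lower), while 8.01% and 7.58% of all genes were called higher in FAK-WT cells. The genes lower in FAK-WT cells, named after their values were seen, were Vegfa, Rora and Cxcr4 against FAK-/- cells and Cxcr4 against FAK-kd cells. Plod2, a lysyl hydroxylase of collagen, was expressed at 111, 116 and 119.7 CPM in the FAK-WT libraries, 43.7, 42.2 and 37.9 CPM in the FAK-/- libraries and 32.6, 36.0 and 35.4 CPM in the FAK-kd libraries. It was separate in FAK-WT cells, 2.82-fold above FAK-/- cells, 1.497 (SE 0.083, edgeR adjusted p = 5.78e-09), and 3.36-fold above FAK-kd cells, 1.75 (SE 0.083, edgeR adjusted p = 1.17e-09). Car12, a second membrane carbonic anhydrase, was expressed at 22.7, 18.1 and 18.4 CPM in the FAK-WT libraries, 7.28, 7.69 and 7.97 CPM in the FAK-/- libraries and 1.71, 1.35 and 1.64 CPM in the FAK-kd libraries. Its lines were fully separate, with log2 fold changes of 1.30 (SE 0.13, edgeR adjusted p = 4.88e-06) over FAK-/- and 3.58 (SE 0.15, edgeR adjusted p = 2.74e-10) over FAK-kd cells and -2.28 (SE 0.14, edgeR adjusted p = 9.7e-08) for FAK-kd against FAK-/- cells, whereas Car9 did not pass in the last comparison. Stc2, a secreted stress protein, was lower in FAK-kd cells, with FAK-WT above FAK-kd cells by 1.14 (SE 0.13, edgeR adjusted p = 1.8e-05) and FAK-kd below FAK-/- cells at -1.10 (SE 0.12, edgeR adjusted p = 4.57e-05). Of 12 other components of the HIF pathway, 1 was higher in FAK-WT cells than in FAK-/- cells, against FAK-kd cells 1 was higher and 1 lower, and 1 was lower in FAK-kd than in FAK-/- cells. These counts are near the shares of all genes, 8.01% higher, 7.58% higher and 10.2% lower, and 3.88% lower. They were Cul2, Egln2 and Rbx1, named after their values were seen, and their log2 fold changes were 0.27 (SE 0.085, edgeR adjusted p = 0.0419) for Cul2 and 0.32 (SE 0.087, edgeR adjusted p = 0.0168) and -0.46 (SE 0.088, edgeR adjusted p = 0.0016) over FAK-kd cells for Egln2 and Rbx1.

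Of 17 other genes of glucose and lactate metabolism, none was higher in FAK-WT cells in either comparison, 1 was lower than in FAK-/- cells and 3 were lower than in FAK-kd cells, and 2 were higher in FAK-kd than in FAK-/- cells. Of all genes 9.96% and 10.2% were called lower in FAK-WT cells and 3.97% higher in FAK-kd cells. The gene lower than in FAK-/- cells, Slc2a4, had at most 9 counts in a FAK-/- or FAK-WT library, and after filterByExpr none of the list was called there. Bpgm, which makes a bisphosphoglycerate side product of glycolysis, was named after its values were seen and stood at 13.8, 13.2 and 13.5 CPM in the FAK-WT libraries, 13.4, 13.5 and 12.9 CPM in the FAK-/- libraries and 25.2, 24.5 and 25.4 CPM in the FAK-kd libraries. FAK-kd cells were separate from the others, by 0.92 (SE 0.084, edgeR adjusted p = 5.78e-06) over FAK-/- cells, with FAK-WT below FAK-kd cells at -0.91 (SE 0.093, edgeR adjusted p = 4.78e-06). Of 11 genes of glycogen and gluconeogenesis, 4 were higher in FAK-WT cells than in FAK-/- cells, against FAK-kd cells 4 were higher and 1 lower, and 1 was higher in FAK-kd than in FAK-/- cells. Of all genes 8.01% were called higher, 7.58% higher and 10.2% lower, and 3.97% higher in these comparisons. Pgm1, the phosphoglucomutase that links glycogen to glycolysis, was expressed at 98.2, 99.3 and 98.3 CPM in the FAK-WT libraries, 44.2, 43.1 and 47.1 CPM in the FAK-/- libraries and 61.1, 66.9 and 63.6 CPM in the FAK-kd libraries. The 3 lines did not overlap, and the log2 fold changes were 1.14 (SE 0.075, edgeR adjusted p = 4.33e-08) over FAK-/-, 0.63 (SE 0.074, edgeR adjusted p = 1.92e-05) over FAK-kd and 0.51 (SE 0.071, edgeR adjusted p = 0.000275) for FAK-kd against FAK-/- cells.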

How the data were processed

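RNA from 9 cultures (3 each of FAK-WT, FAK-/- and FAK-kd cells) was sequenced in pairs of reads with an unstranded kit. The deposited values are estimated counts, which the authors made with kallisto 0.43.1 and summed to genes with tximport. They are whole numbers, not scaled to library size, and reads that fit several transcripts are divided by the estimate. The submitters' processing notes name GRCm38 and mm10, and the transcriptome release is not given in the sources used here.

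Counts of all 19044 genes in the 9 libraries were fitted with edgeR 4.0.16 in R 4.3.3 (TMM scaling, quasi-likelihood test, group as the only term, no filter), with Benjamini-Hochberg adjustment over all genes and a threshold of 0.05. The fit was tested on simulated data. CPM per kb used the length of 1 transcript per gene from the GRCm38 annotation. Members were matched to copies by shared 31-base words of transcripts, and a copy held over 10% of a member's words. Ratios of related members were compared with a two-sided exact permutation test. Promoter windows came from RefSeq (GRCm38). Floors cover counting error only. The SDs and edgeR SEs take in the spread between libraries, and the p-values measure the spread between cultures of 1 clone's descendants.

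The alternatives were DESeq2 1.42.0, DESeq2's size factors, library size alone, edgeR's filterByExpr, only the groups compared, a replicate block, GC offsets, each library left out in turn, members with shared words left out and a pseudocount of 2 for ratios. Summing the copies was chosen after seeing the data. Any member could be named. From each pathway list at most 4 genes were named, those of smallest adjusted p that passed the threshold with a log2 fold change of at least 1 and a mean count of at least 100, and others are said to be chosen after their values were seen. The members and lists were chosen with earlier results of these data known.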

Additional observations from a re-analysis of the deposited data

How the results depend on the processing

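Of 969 recomputed values of the 57 member fold changes that passed, 859 stayed past the threshold, 110 no longer passed and 0 changed sign. The counts that moved by over 1.5 times were as follows. Leaving out members with shared words, which also lowers the number of members counted, gave 12 higher in FAK-WT cells than in FAK-/- cells, 8 higher than in FAK-kd cells, and 2 lower in FAK-kd than in FAK-/- cells. The members higher in FAK-kd than in FAK-/- cells numbered 3 with DESeq2's size factors, 3 with library size alone, 2 with only the groups compared and 8 with GC offsets, which also raised all genes called there to 2264. After filterByExpr the other glucose and lactate genes called between FAK-WT and FAK-/- cells numbered 0 and the pentose phosphate genes 1. With DESeq2 the member counts were 23 higher and 5 lower, 20 and 3, and 6 and 7, and its median over all genes shifted by 0.08, 0.10 and 0.

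With 1 library left out, genes called ranged over 2016 to 4393 (FAK-WT against FAK-/-), 2083 to 5355 (FAK-WT against FAK-kd) and 712 to 2211 (FAK-kd against FAK-/-). Members lower in FAK-WT cells ranged over 3 to 7 and 1 to 5, and members higher in FAK-kd than in FAK-/- cells over 1 to 8. The log2 ratio differences for Slc2a1 over Slc2a3 ranged over -1.89 to 0.94, -1.37 to 1.46 and -1.35 to 0.32, and for Aldoa over Aldoc in FAK-kd against FAK-/- cells over -0.33 to 0.24, resting on a few counts of the rarer gene. The cause was not tested for any other change. FAK-WT replicate 1 limits genes under its floor of 3.85 CPM.

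The replicate numbers did not pair the samples. The deviations of same-numbered libraries had a mean correlation of -0.00768 (9 pairs, highest 0.0453), and those of other numbers 0.00353 (18 pairs). With the replicate block the members were 19 higher and 6 lower, 17 and 3, and 4 and 5.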

Other observations

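Genes of other branches of glucose use were read in the same way. Of 8 genes of the pentose phosphate pathway, which makes NADPH and ribose from glucose phosphate, none was higher in FAK-WT cells in either comparison, 2 were lower than in FAK-/- cells and 1 was lower than in FAK-kd cells, and 1 was lower in FAK-kd than in FAK-/- cells. The median log2 fold changes were -0.23, -0.14 and -0.09. Of all genes 9.96%, 10.2% and 3.88% were called lower in these comparisons, and after filterByExpr the calls against FAK-/- cells fell to 1, so that these counts are near the shares of all genes. The genes, named after their values were seen, were Pgls and Taldo1 against FAK-/- cells, Tkt against FAK-kd cells, and Taldo1 between FAK-kd and FAK-/- cells.

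Of 25 genes of pyruvate entry and the TCA cycle, which oxidise pyruvate in mitochondria, 5 were higher and 1 lower in FAK-WT cells than in FAK-/- cells, against FAK-kd cells 2 were higher and 3 lower, and 1 was higher in FAK-kd than in FAK-/- cells, with medians of 0.06, 0.02 and 0.03. The counts against FAK-kd cells and between FAK-kd and FAK-/- cells are near the shares of all genes (7.58% higher and 10.2% lower, and 3.97% higher), and against FAK-/- cells 8.01% of all genes were higher and 9.96% lower. The gene lower in FAK-WT than in both other lines, named after its values were seen, was Dlat, a core subunit of pyruvate dehydrogenase. Its log2 fold changes were -0.54 (SE 0.064, edgeR adjusted p = 2.37e-05) and -0.48 (SE 0.064, edgeR adjusted p = 7.58e-05), while Pdha1, a catalytic subunit of the same complex, was higher than in FAK-/- cells by 0.36 (SE 0.074, edgeR adjusted p = 0.00324).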
